A study of Mus musculus with 32 samples.

Results

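The genes described here are the nuclear genes for the mitochondrial respiratory chain and ATP synthase, measured in uninjured and regenerating tibialis anterior muscle of young and old mice. They were chosen by name: protein-coding rows whose symbol starts with Nduf, Uqcr, Cox4, Cox5, Cox6, Cox7, Cox8 or Atp5, together with Sdha, Sdhb, Sdhc, Sdhd, Cyc1 and Cycs. The rule took 96 of the 54532 rows in the deposited table, of which 22046 are protein-coding. By role, 36 rows belong to complex I, 4 to complex II, 9 to complex III, 1 is cytochrome c, 20 belong to complex IV and 18 to complex V, and 8 are complex I assembly factors that carry an Ndufaf name.

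The study sequenced mRNA from the tibialis anterior, a fast muscle of the lower leg, in 32 libraries from C57BL/6J mice. There were 8 groups of 4 libraries: young vehicle uninjured, young vehicle at 7 and at 35 days after injury, old vehicle uninjured, old vehicle at 7 and at 35 days, and old mice given BI01 at 7 and at 35 days. Injury was by BaCl, as the labels write it, a salt that kills muscle fibres and is followed by their regeneration. BI01 is described as a senolytic, that is, an agent used to clear senescent cells, and the series title refers to p53-MDM2 binding. All mice that did not get BI01 got vehicle, the ages are given only as young and old, and BI01 was given to old injured mice only. The uninjured libraries carry PBS and the name of the 35-day set in the headers of the table, so that in every comparison of day 7 with uninjured muscle the injury and the collection set cannot be told apart. The labels do not say that the 4 libraries of a group came from separate animals, and the p-values measure only the spread between these libraries.

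The respiratory chain passes electrons from NADH at complex I and from succinate at complex II through coenzyme Q to complex III, cytochrome c and complex IV, where oxygen is reduced. Complexes I, III and IV pump protons across the inner mitochondrial membrane, and complex V, the ATP synthase, uses the gradient to make ATP. Apart from complex II and cytochrome c, each complex joins nuclear-encoded subunits with a few encoded by mitochondrial DNA. Several complex IV subunits exist in a heart and skeletal muscle isoform and a widely expressed one, encoded by separate genes.

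Total counts ranged from 14129350 to 30439358 per library. The 3 day 7 groups had the highest TMM factors, 1.06 to 1.42 in young, 1.51 to 1.87 in old vehicle and 1.45 to 1.67 in old BI01 libraries, against 0.673 to 0.910 in the other 5 groups. Values are therefore given as TMM-scaled CPM, counts scaled to 1000000 per library, and where scaling by library size alone turns a direction this is said. Summed mature fast fibre genes, the markers of the labelled tissue, stood at 342450.0 ± 39983 CPM in young and 273385 ± 3355 CPM in old uninjured muscle (mean ± SD, n = 4). At day 7 their sum was 129495 CPM in young libraries (93100.2 to 199665), 60380.5 in old vehicle (13773 to 86217) and 61418 in old BI01 (35732 to 89704). Summed macrophage genes rose from a mean of 93.5 to 1304 CPM (829 to 1529) in young and from 127 to 2085 CPM (1108 to 2957) in old vehicle muscle, with 13 of 14 genes called higher and none lower at each age. All 10 fibroblast and matrix genes were called higher at day 7 at both ages, with a summed mean of 14164 CPM in young and 16185 in old vehicle against 439.6 and 428 in uninjured muscle. Regenerating fibre genes were called higher in 11 of 12 at day 7 at both ages, with a median log2 change of 5.91 in young and 2.84 in old muscle, where 1 was lower. Slow fibre genes were higher in 9 of 11 in young and 8 in old muscle, and erythroid genes lower in 3 of 5 and in 5. In bulk tissue, fewer muscle fibres and less subunit RNA per fibre cannot be told apart, and the part of these other cells in the results below was not tested.

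Of the 96 genes, 92 had enough counts to be tested. The 4 others were Cox6b2 and Cox8c, isoforms known from testis, Cox7b2, and a second row named Atp5o. Cox8c and the second Atp5o row had no counts in any library, which allows up to 0.00523 CPM over all libraries for counting error only. Cox7b2 had 8 counts in all, and Cox6b2 had 131, of which 65 were in the 4 old BI01 libraries at day 7. In the file's gene coordinates 40 of the 96 genes overlap another gene, among them Cox6a2 with Itgad and Ndufa4l2 with Shmt2, and their reads could have been split or shared in counting.

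Per kilobase of gene length, the most abundant subunit RNA in uninjured muscle was Cox6a2, the muscle isoform of complex IV subunit 6a, with a mean of 745 CPM per kb in young and 1039 in old libraries. The ATP synthase subunits Atp5a1 and Atp5b followed, Atp5a1 at 720.3 in young and 812 in old and Atp5b at 551 and 648 CPM per kb. This order depends on the gene length in the deposited table, 680 bases for Cox6a2, 3135 for Atp5a1 and 4237 for Atp5b. Counts summed over all 32 libraries and not divided by length were 237932 for Cox6a2, 1156083 for Atp5a1 and 1336790 for Atp5b. The lowest of the tested genes in young uninjured muscle were Cox4i2, an isoform induced by low oxygen, at 1.24, Ndufaf2 at 1.44, Ndufb2 at 1.49 and Ndufa4l2 at 1.70 CPM per kb. Among the isoforms of a single subunit, Cox4i2 never exceeded a mean of 1.05% of subunit 4 RNA in any group. The 3 genes for ATP synthase subunit c, which encode the same mature protein, shared its RNA: Atp5g3 held 40.8% in young and 48.2% in old uninjured muscle, and Atp5g1 held 23.3% and 21.5%.

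Subunit RNA was lowest at day 7 after injury and highest at day 35. The 96 genes together made up 1.63, 2.15, 1.25 and 2.14% of the TMM-scaled counts in the 4 young uninjured libraries and 0.941, 1.24, 1.32 and 1.71% in the 4 young day 7 libraries. These 2 groups overlapped, because young uninjured library 3 was low and young day 7 library 7 was high. In old vehicle muscle the values were 2.72, 2.06, 2.26 and 2.51% uninjured and 0.537, 0.771, 1.29 and 0.689% at day 7. Every old day 7 library lay below every old uninjured one, and library 9 was the highest of the 4 at day 7. At day 35 the sum was 2.79, 2.52, 2.42 and 2.94% in young, 2.80, 2.93, 2.84 and 2.64% in old vehicle and 2.60, 2.60, 3.09 and 2.76% in old BI01 libraries. Library size alone gave another order: the means were 1.25% in young uninjured and 1.63% in young day 7 muscle, against 1.91% and 1.30% in old vehicle muscle, so that the young decrease turned into an increase and the old one kept its direction.

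**Figure D1:**
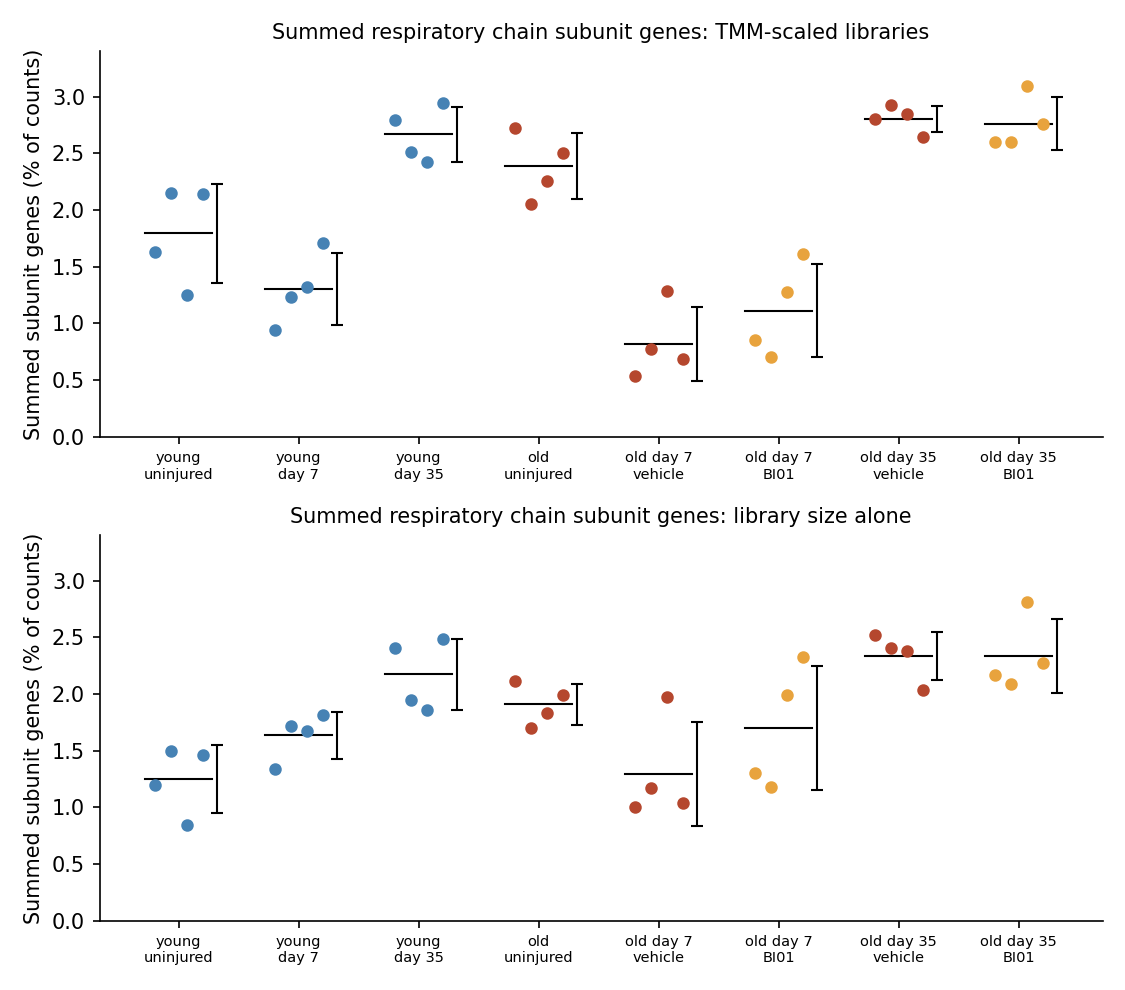
Summed counts of the 96 subunit genes as a percentage of each library, for the 8 groups, with TMM scaling above and library size alone below. Points are libraries, lines are means and bars are the SD (n = 4). With TMM scaling the old day 7 mean of 0.821% lies below the uninjured 2.39%, and the young day 7 mean of 1.30% below 1.79%. With library size alone the young day 7 mean of 1.63% lies above the uninjured 1.25%.

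The split between complexes moved little beside the change in the total. Complex I took between 25.7% and 27.1% of the summed CPM per kb in the 8 group means, complex III between 12.8% and 14.0%, and complex II between 4.57% and 5.51%. Complex IV ranged from 23.1% in young day 7 to 29.7% in old uninjured muscle, and complex V from 24.2% in old uninjured to 29.8% in young day 7 muscle. These shares do not depend on the scaling of the libraries.

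In young muscle at day 7, 26 of the 92 genes were lower than in uninjured muscle and 3 were higher (edgeR quasi-likelihood test, adjusted p under 0.05). Over all 17121 genes tested, 27.5% were called lower and 33.3% higher, so the share of subunit genes called lower was near the background, while few were called higher. The median log2 change of the subunit genes was -0.48, against 0.17 for all genes, and 7 genes were lower without overlap between the groups (21.9% of all genes). By complex, 14 of 36 complex I genes fell, 1 of 4 in complex II, 1 of 9 in complex III, 5 of 17 in complex IV, 2 of 17 in complex V and 3 of 8 assembly factors. Leaving out young uninjured library 4 or young day 7 library 4 lowered the count of falls to 16, leaving out young uninjured library 3 raised it to 42, and leaving out young day 7 library 7 raised it to 47. With library size alone 1 gene was lower and 34 were higher.

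In old vehicle muscle at day 7, 88 of the 92 genes were lower and 3 were higher, where 29.8% of all genes were called lower and 34.4% higher. The median log2 change was -1.55, against 0.14 for all genes, and 85 genes were lower with no overlap between the groups (27.9% of all genes). Every tested gene of complex I (36), complex II (4), complex III (9), complex V (17) and the assembly factors (8) fell, as did Cycs and 13 of 17 complex IV genes. The median log2 change was -1.68 in complex I, -1.47 in complex II, -1.79 in complex III, -1.55 in complex IV and -1.47 in complex V. The count of falls stayed between 84 and 88 when single libraries were left out, and was 48 with library size alone. All 26 genes called lower in young muscle were among the 88 called lower in old muscle, 29.5% of them. With 88 of 92 genes called lower in old muscle, an overlap of this size was nearly fixed in advance.

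The scaling bears on both day 7 comparisons. With library size alone, the median log2 change of the subunit genes was 0.38 in young muscle, a change of sign, and -0.57 in old muscle. The median of all genes moved with it, to 1.05 in young and 1.15 in old muscle. Relative to the median of all genes the subunit genes stood at -0.65 with TMM and -0.67 with library size alone in young muscle, and at -1.69 and -1.72 in old muscle. Scaling moves all genes of a comparison by about the same amount, so the near-equality of these distances was nearly fixed in advance.

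**Figure D2:**
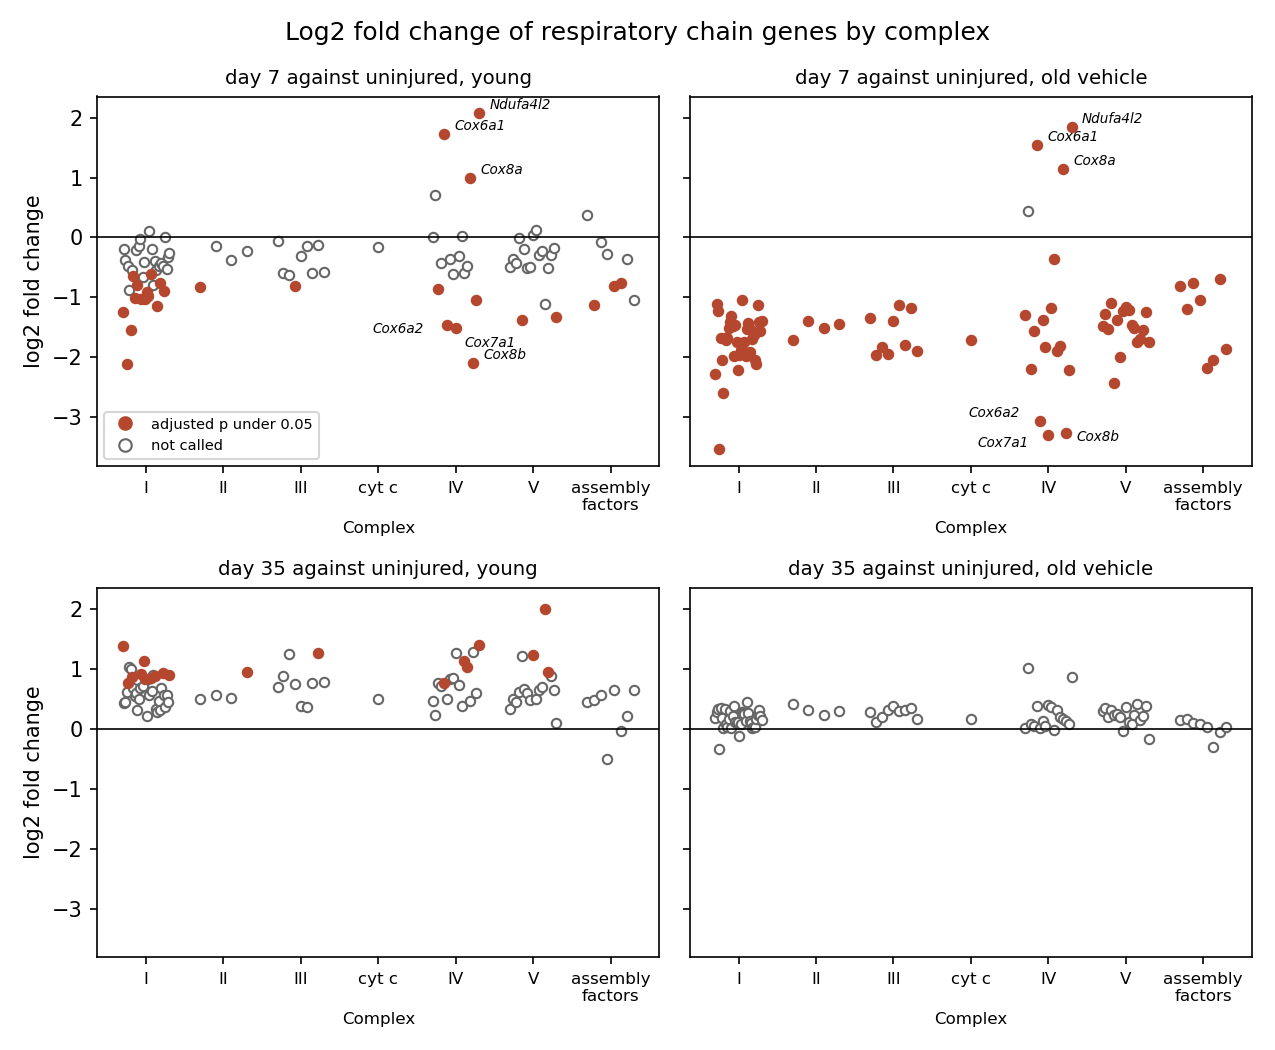
Log2 change of each tested subunit gene, by complex, at day 7 and day 35 against uninjured muscle in young and old vehicle mice, with TMM scaling. Each point is a gene, and filled points have an adjusted p under 0.05. At day 7, 88 of 92 genes are called lower in old and 26 in young muscle. At day 35, 19 are called higher in young and 0 in old muscle. With library size alone the median of the young day 7 points turns positive, 0.38.

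Complex I, the entry point for NADH, held the largest fall of any subunit gene in old muscle. In young muscle its largest fall was level with that of Cox8b in complex IV, at a log2 change of -2.10 each. In both ages the complex I gene was Ndufa12 (ENSMUSG00000020022, chromosome 10, 94198720 to 94221443 in mm10), an accessory subunit. It had 34.6, 107, 19.8 and 107 CPM in young uninjured libraries and 15.2, 15.6, 14.6 and 16.8 at day 7, and 109, 119.8, 129.6 and 126 CPM in old uninjured libraries and 9.09, 8.11, 20.5 and 4.37 at day 7. The uninjured and day 7 libraries did not overlap in either age, and young uninjured libraries 1 and 3 lay well below libraries 2 and 4. The log2 change at day 7 was -2.10 (SE 0.42, adjusted p = 9.61e-05) in young and -3.53 (SE 0.44, adjusted p = 8.77e-08) in old muscle by edgeR's quasi-likelihood test.

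Complex II is both a chain enzyme and an enzyme of the TCA cycle, and Sdha is its catalytic flavoprotein. Sdha had 907, 993, 869 and 1091 CPM in young uninjured and 445, 454, 533 and 755 at day 7, and 1184, 819, 950.0 and 1086 in old uninjured and 148, 293, 409 and 381 CPM at day 7. The groups did not overlap in either age. Its log2 change was -0.82 (SE 0.24, adjusted p = 0.00451) in young muscle, which became 0.03 with library size alone, and -1.71 (SE 0.25, adjusted p = 5.39e-07) in old muscle (edgeR). In complex III the largest falls were Uqcrb in young muscle, -0.81 (SE 0.32, adjusted p = 0.0304), also 0.03 with library size alone and lost without any one of 5 libraries (adjusted p of 0.0728 to 0.099), and Uqcr10 in old muscle, -1.96 (SE 0.43, adjusted p = 0.000226).

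Cycs (ENSMUSG00000063694, chromosome 6, 50562563 to 50566538) encodes cytochrome c, the mobile carrier between complexes III and IV. It had 161, 292, 151 and 255 CPM in young uninjured libraries and 124, 176, 178 and 291 at day 7, against 360.2, 239.5, 311 and 321 in old uninjured and 60.4, 76.6, 153 and 85.9 at day 7. The young groups overlapped widely, and all 4 old day 7 libraries lay below the old uninjured ones. The log2 change was -0.16 (SE 0.28, adjusted p = 0.635) in young muscle and -1.71 (SE 0.29, adjusted p = 5.37e-06) in old muscle by edgeR, and the young value became 0.68 with library size alone.

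In complex V, Atp5b, the catalytic beta subunit, had 3032, 2456, 2513 and 2978 CPM in old uninjured and 687, 1118, 1654 and 1073 in old day 7 libraries, without overlap. Its log2 change was -1.28 (SE 0.23, adjusted p = 1.74e-05) by edgeR, and -0.30 with library size alone, where the call was lost (adjusted p = 0.164). The largest fall in the complex was Atp5e, the epsilon subunit, with -1.37 (SE 0.48, adjusted p = 0.0146) in young and -2.42 (SE 0.49, adjusted p = 0.000103) in old muscle. Its young call was lost without young uninjured library 4 (adjusted p = 0.055) or young day 7 library 4 (0.0564), and with library size alone (0.339). Among assembly factors the largest falls were Ndufaf2 in young muscle, -1.13 (adjusted p = 0.0146), and Ndufaf5 in old muscle, -2.17 (adjusted p = 1.96e-07). The call of Ndufaf2 was lost without young uninjured library 2 (adjusted p = 0.0576) or 4 (0.102), without young day 7 library 4 (0.0663), with only the compared groups (0.0968) and with library size alone (0.631).

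All 3 genes called higher at day 7, the same 3 in both ages, belong to complex IV. The muscle isoforms of subunits 6a, 7a and 8, which are Cox6a2, Cox7a1 and Cox8b, were lower at day 7 in both ages, while the widely expressed Cox6a1 and Cox8a were higher. Cox6a2 (ENSMUSG00000030785, chromosome 7, 128205435 to 128206387) and Cox6a1 (ENSMUSG00000041697, chromosome 5, 115345642 to 115348981) encode the pair for subunit 6a. Cox7a1 (ENSMUSG00000074218, chromosome 7, 30184144 to 30186078) is the muscle gene of subunit 7a, and Cox8b (ENSMUSG00000025488, chromosome 7, 140898945 to 140900446) and Cox8a (ENSMUSG00000035885, chromosome 19, 7215158 to 7217616) are the pair for subunit 8. All coordinates are in mm10.

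The 250 bases upstream of 4 of these genes, which moved in opposite directions, are shown from RefSeq (GRCm38.p6, the assembly of mm10), 5′ to 3′ on the gene's strand. They are Cox8b (chr7:140900447-140900696, minus strand), Cox7a1 (chr7:30183921-30184170, plus strand), Cox8a (chr19:7217617-7217866, minus strand) and Cox6a1 (chr5:115348959-115349208, minus strand). The RefSeq start of Cox7a1 lies inside the gene interval that the deposited table gives, and that of Cox6a1 likewise. Capitals mark matches, on either strand, to 7 motifs: NRF1 (GCGCA and GCGC with 1 base of any kind between them), GABP (CCGGAAG), ERR (AAGGTCA), YY1 (GCCATNTT), CRE (TGACGTCA), MEF2 (CTA and TAG with 4 bases between them) and E-box (CAGCTG).
Cox8b: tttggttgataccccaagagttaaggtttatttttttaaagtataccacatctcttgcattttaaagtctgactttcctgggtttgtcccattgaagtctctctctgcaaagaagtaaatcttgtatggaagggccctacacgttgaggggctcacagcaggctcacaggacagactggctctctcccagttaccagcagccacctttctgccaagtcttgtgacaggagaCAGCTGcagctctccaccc
Cox7a1: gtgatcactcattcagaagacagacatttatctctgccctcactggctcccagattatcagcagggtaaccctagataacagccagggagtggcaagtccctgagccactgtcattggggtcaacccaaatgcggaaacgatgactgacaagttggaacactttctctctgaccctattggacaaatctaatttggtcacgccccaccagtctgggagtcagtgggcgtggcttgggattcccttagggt
Cox8a: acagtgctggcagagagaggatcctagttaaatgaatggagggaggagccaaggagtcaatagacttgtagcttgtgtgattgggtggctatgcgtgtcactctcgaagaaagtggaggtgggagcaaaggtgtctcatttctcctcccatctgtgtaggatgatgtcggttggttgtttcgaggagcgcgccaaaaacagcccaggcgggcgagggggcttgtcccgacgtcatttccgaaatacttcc
Cox6a1: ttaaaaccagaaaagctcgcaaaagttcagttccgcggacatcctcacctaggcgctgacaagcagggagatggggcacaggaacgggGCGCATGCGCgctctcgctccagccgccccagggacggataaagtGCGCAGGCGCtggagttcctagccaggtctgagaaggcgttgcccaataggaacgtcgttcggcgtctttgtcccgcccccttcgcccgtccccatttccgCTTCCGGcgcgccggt
Cox8b has an E-box at -19 from the start, Cox6a1 has NRF1 matches at -162 and -117 and a GABP match at -16, and the 2 other windows hold no match. RefSeq promoters were found for 77 of the 96 genes. NRF1 was matched in 18.2% of them, against 5.84% of the 17492 protein-coding promoters, GABP in 18.2% against 10.2%, YY1 in 9.09% against 4.29% and CRE in 6.49% against 2.20%. The ERR motif was matched in 6.49% against 4.18%, MEF2 in 1.30% against 3.56% and the E-box in 7.79% against 13.8%. A match describes these letters only and was not tested as a binding site.

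For subunit 6a, Cox6a2 had 535, 607, 213 and 671 CPM in young uninjured libraries and 99.3, 183, 183 and 271 at day 7. In old muscle it had 856, 631, 651 and 689 CPM uninjured and 36.0, 62.7, 188 and 53.0 at day 7. Young uninjured library 3 reached down into the day 7 range, and the old groups did not overlap. Cox6a1 had 13.5, 13.2, 9.01 and 11.8 CPM in young uninjured and 31.6, 49.9, 38.2 and 36.8 in young day 7 libraries, then 16.2, 23.5, 16.1 and 14.6 in old uninjured and 81.1, 38.6, 62.4 and 23.5 in old day 7 libraries. Its day 7 libraries lay above the uninjured ones in both ages, by little in old muscle. By edgeR, Cox6a2 changed by -1.46 (SE 0.41, adjusted p = 0.00325) in young and -3.06 (SE 0.44, adjusted p = 6.25e-07) in old muscle, and Cox6a1 by 1.72 (SE 0.25, adjusted p = 7.63e-07) and 1.54 (SE 0.25, adjusted p = 2.54e-06), all as log2 values.

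For subunit 8, Cox8b had 97.1, 125, 20.3 and 124 CPM in young uninjured and 10.6, 31.0, 23.4 and 20.8 in young day 7 libraries, and 241, 164, 193 and 184 in old uninjured and 8.41, 9.94, 59.9 and 3.72 in old day 7 libraries. Young uninjured library 3 and old day 7 library 9 stood apart from the rest of their groups. Cox8a had 27.5, 16.6, 21.2 and 18.7 and 30.4, 54.3, 47.1 and 34.7 CPM in the same young groups, and 21.5, 30.2, 18.2 and 21.2 and 73.8, 38.0, 60.7 and 29.0 in the old ones. The young groups of Cox8a did not overlap, and in old muscle day 7 library 10 lay within the uninjured range. The log2 change of Cox8b was -2.10 (SE 0.69, adjusted p = 0.0107) in young and -3.26 (SE 0.72, adjusted p = 0.000317) in old muscle, and that of Cox8a 0.99 (SE 0.24, adjusted p = 0.000609) and 1.14 (SE 0.23, adjusted p = 9.6e-05) (edgeR).

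For subunit 7a both isoforms were lower in old muscle. Cox7a1 had 226, 132, 159 and 184 CPM in old uninjured libraries and 5.90, 10.3, 47.1 and 8.37 at day 7, and Cox7a2, the widely expressed isoform, had 103, 89.1, 106 and 107 and 36.9, 36.8, 76.1 and 28.2. Neither gene overlapped between these groups, and library 9 was the highest of the 4 at day 7 for each. The log2 change in old muscle was -3.29 (SE 0.62, adjusted p = 5.01e-05) for Cox7a1 and -1.18 (SE 0.26, adjusted p = 0.000238) for Cox7a2 by edgeR, and with library size alone Cox7a2 stood at -0.19 and lost the call (adjusted p = 0.51). In young muscle it was -1.51 (SE 0.58, adjusted p = 0.0282) for Cox7a1, and -0.32 (SE 0.26, adjusted p = 0.293) for Cox7a2, which became 0.54 with library size alone. The young calls of the muscle isoforms were lost with library size alone, at an adjusted p of 0.145 for Cox6a2, 0.29 for Cox7a1 and 0.104 for Cox8b, and their changes remained negative. That of Cox7a1 was also lost without young uninjured library 2 (adjusted p = 0.0705) or 4 (0.0756) and without young day 7 library 4 (0.0918) or 6 (0.0537).

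**Figure D3:**
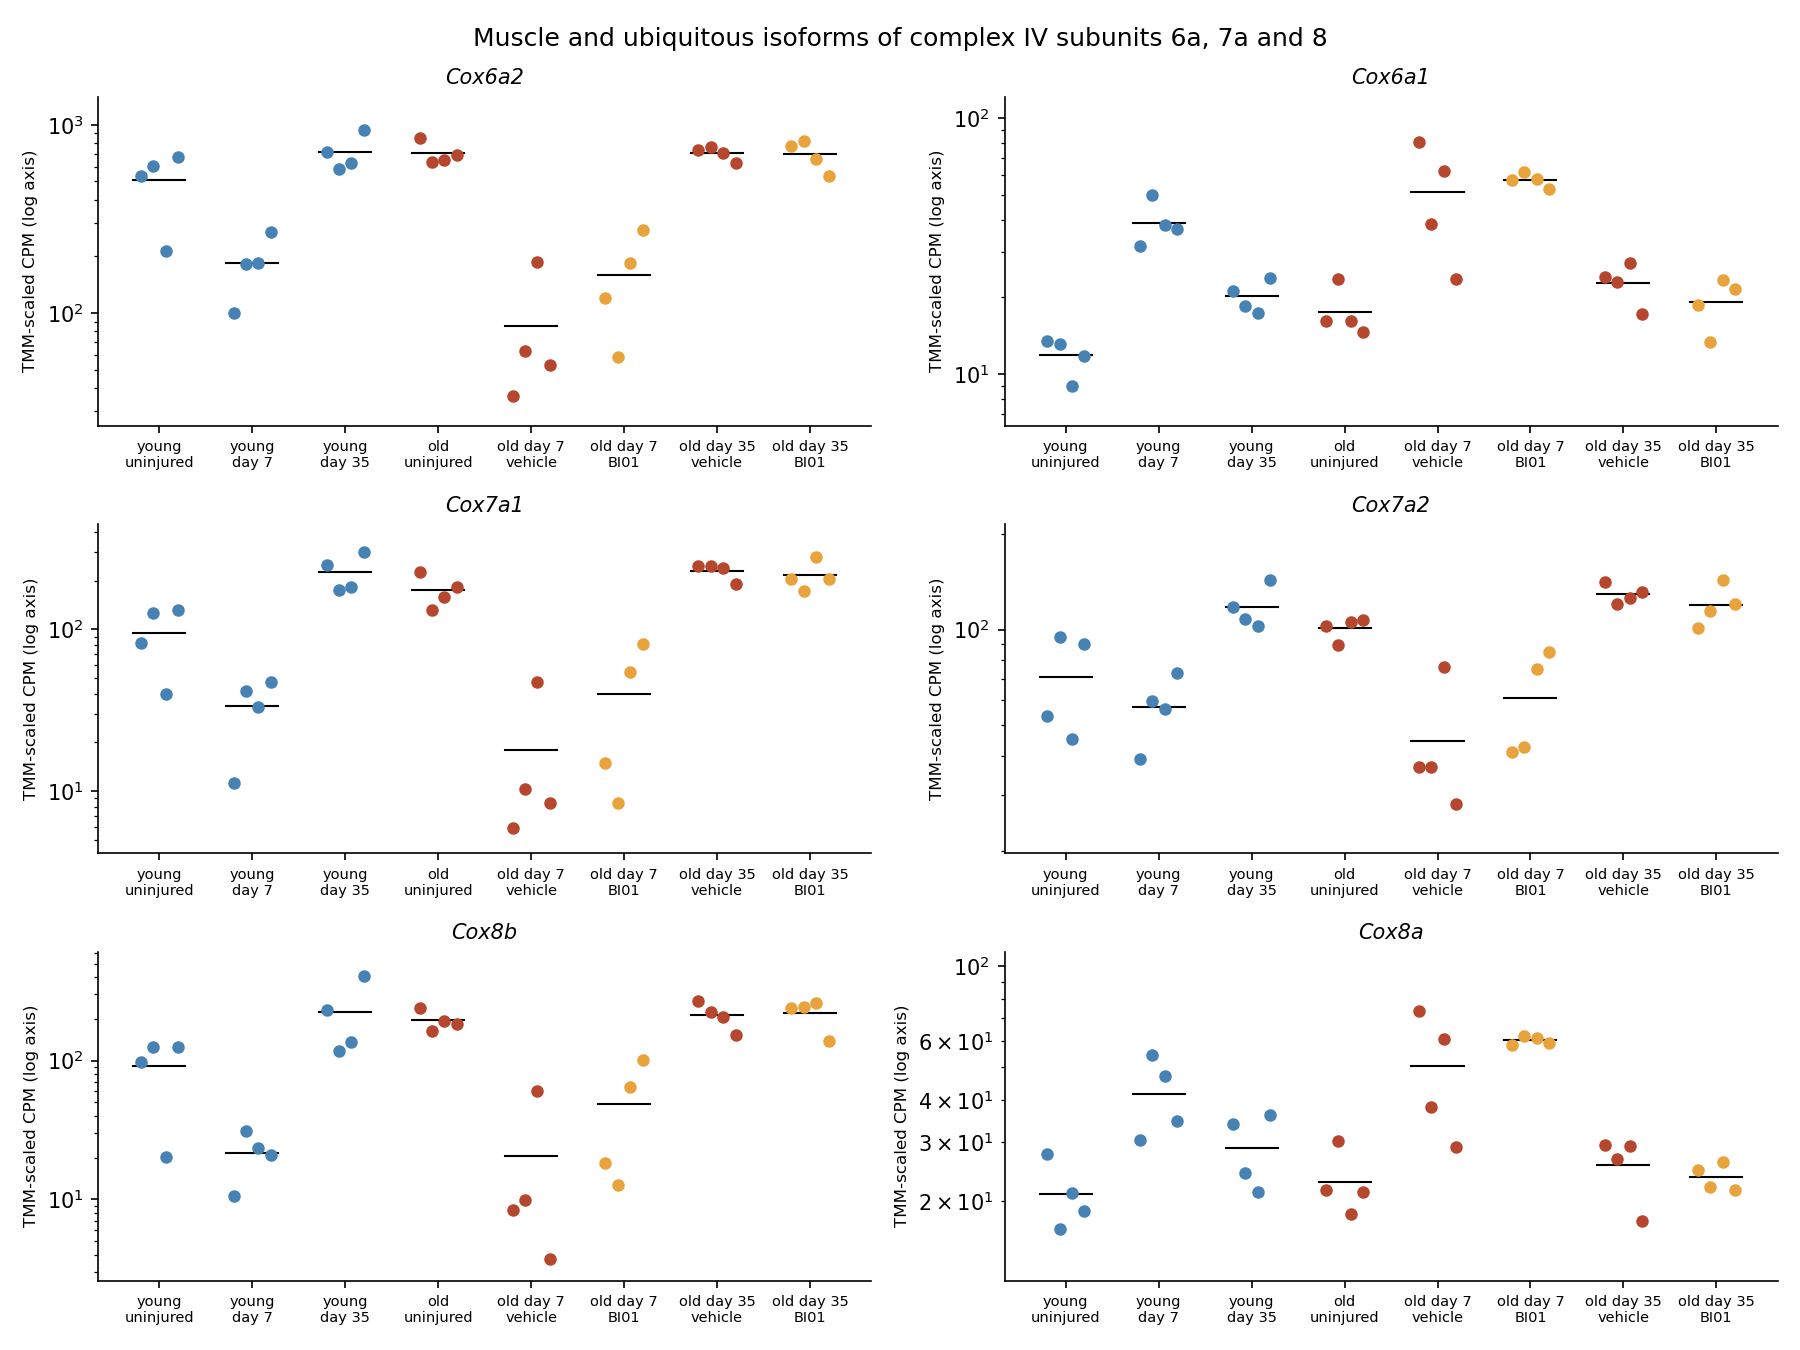
TMM-scaled CPM on a log axis of Cox6a2, Cox6a1, Cox7a1, Cox7a2, Cox8b and Cox8a in each of the 32 libraries by group. Points are libraries and lines are group means. The means of Cox6a2, Cox7a1 and Cox8b are lower, and those of Cox6a1 and Cox8a higher, in each day 7 group than in the uninjured group of the same age.

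The share of the muscle isoform within each pair is free of the scaling, because both genes are read in the same library. Cox6a2 made up 97.5% ± 0.996 of subunit 6a RNA per kb in young uninjured muscle and 97.6% ± 0.750 in old (SD, n = 4). At day 7 it was 81.8% ± 5.20 in young, 59.9% ± 19.7 in old vehicle and 69.6% ± 15.0 in old BI01 muscle, and at day 35 the means were 97.3%, 97.0% and 97.3%. The old vehicle libraries spread widely at day 7, from 31.4% to 75.6%, and all lay below every uninjured and day 35 library.

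Cox8b made up 81.6% ± 15.3 of subunit 8 RNA per kb in young and 92.7% ± 2.41 in old uninjured muscle, and 42.9% ± 5.90, 29.8% ± 21.0 and 47.3% ± 23.2 in young, old vehicle and old BI01 day 7 muscle. Cox7a1 made up 69.0% ± 5.53 and 74.9% ± 3.32 of subunit 7a RNA in uninjured muscle, and 48.4% ± 9.96, 35.4% ± 12.5 and 46.0% ± 16.7 at day 7. At day 35 the Cox8b means lay between 91.1% and 93.1% and the Cox7a1 means between 75.7% and 76.9%. In each of the 3 pairs the mean share of the muscle isoform was lowest in old vehicle muscle at day 7. The shares were described without a test.

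**Figure D4:**
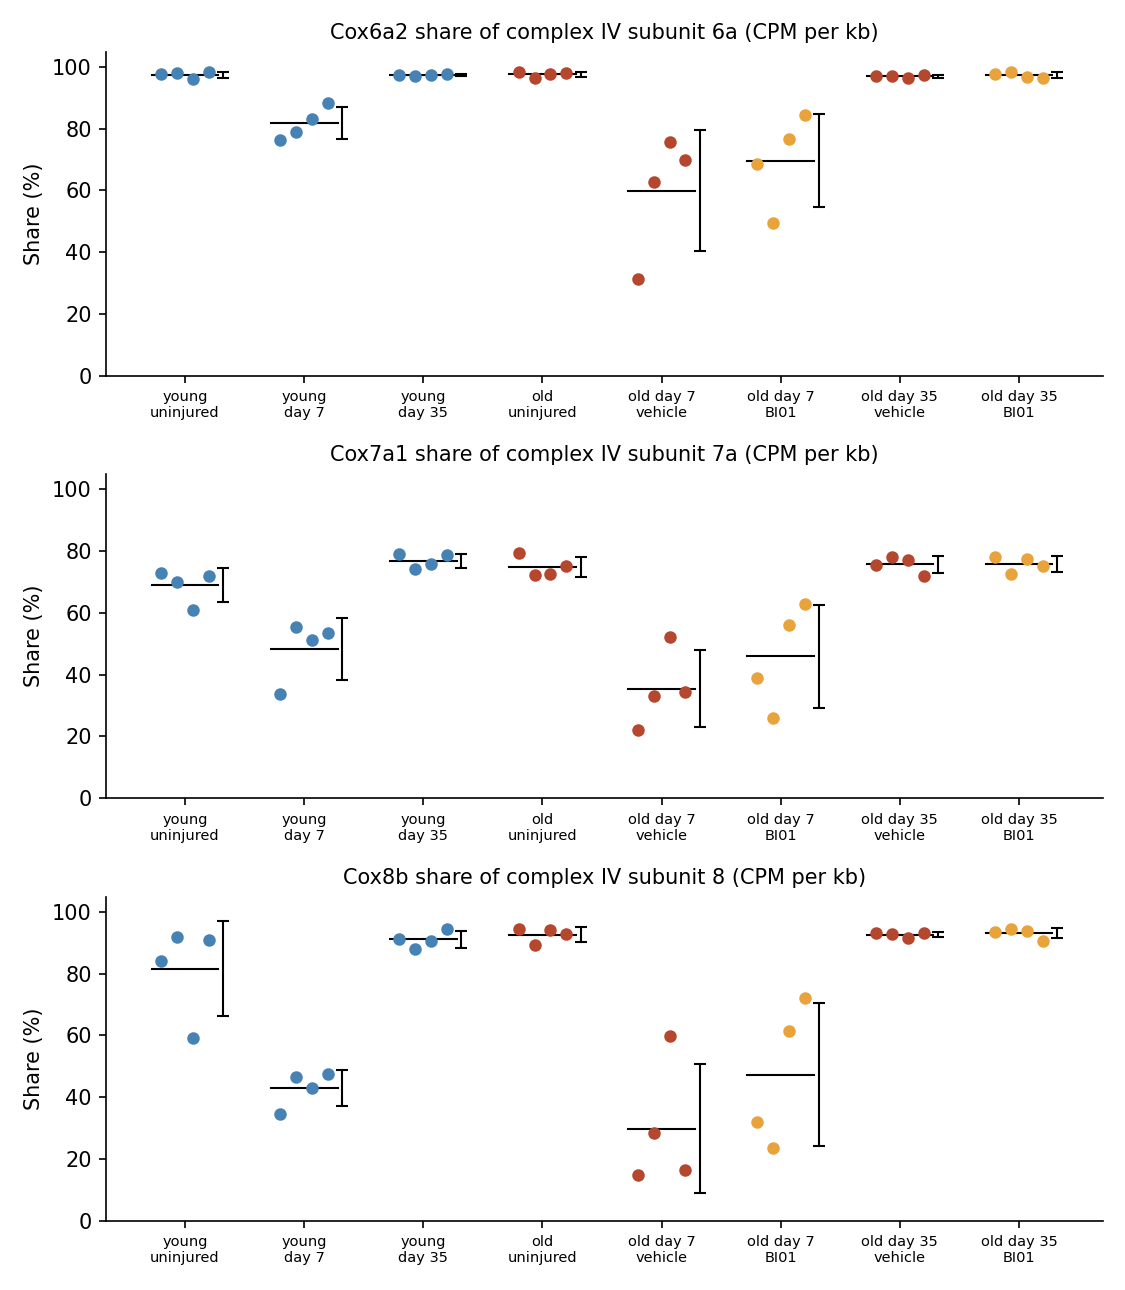
Share of the muscle isoform in the RNA per kb of complex IV subunits 6a (Cox6a2), 7a (Cox7a1) and 8 (Cox8b), in percent, by group. Points are libraries, lines are means and bars are the SD (n = 4). The old vehicle day 7 means are 59.9%, 35.4% and 29.8%, against 97.6%, 74.9% and 92.7% in old uninjured muscle.

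Ndufa4l2 (ENSMUSG00000040280, chromosome 10, 127514967 to 127517154), counted here with complex IV as a paralog of Ndufa4 known to be induced by low oxygen through HIF1, was the third gene called higher at day 7 in both ages. It had 2.24, 2.14, 0.276 and 2.80 CPM in young uninjured and 5.49, 12.6, 8.26 and 5.02 at day 7, and 4.58, 3.34, 3.60 and 5.56 in old uninjured and 33.5, 8.62, 11.0 and 8.32 at day 7. The groups did not overlap in either age, and old day 7 library 7 was far above the others. The log2 change was 2.07 (SE 0.47, adjusted p = 0.000384) in young and 1.85 (SE 0.43, adjusted p = 0.000492) in old muscle (edgeR). Ndufa4 itself, now counted as a complex IV subunit, fell in young muscle by the same test, with a log2 change of -1.05 (adjusted p = 0.0019). This young call was lost with library size alone (adjusted p = 0.519). In old muscle Ndufa4 was among the 13 of 17 complex IV genes called lower at day 7 with TMM scaling. The mean share of Ndufa4l2 in the RNA per kb of the pair was 0.816% in young uninjured and 7.36% in young day 7 muscle, and 1.38% and 20.2% in old. The old day 7 mean includes library 7, where Ndufa4l2 had 33.5 CPM against 8.32 to 11.0 in the others.

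Most subunit genes otherwise followed a common profile over the 32 libraries, which include all 8 groups. The median Pearson r between a gene's log2 CPM and the median profile of the 92 genes was 0.96, and 85 of 92 genes had an r above 0.8. An r below 0 was found for Cox8a (-0.57), Cox6a1 (-0.54) and Ndufa4l2 (-0.26). The libraries share their group and their scaling factor, and these values are a description.

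From day 7 to day 35, 80 of 92 genes rose and 1 fell in young muscle, where 26% of all genes were called higher and 29.3% lower. In old vehicle muscle 87 rose and 3 fell (27.5% and 31.4% of all genes), and in old BI01 muscle 79 rose and 2 fell (26.2% and 29.4%). The median log2 change was 1.15 in young, 1.74 in old vehicle and 1.30 in old BI01 muscle. The largest rise in complex I in young muscle was Ndufa12, 2.72 (adjusted p = 5.2e-06), and Cox7a1 rose by 3.69 (adjusted p = 1.7e-05) in old vehicle and 2.44 (adjusted p = 0.00116) in old BI01 muscle, as log2 values from edgeR. Cox6a1 fell in all 3, by log2 changes of -0.96 (adjusted p = 0.00138), -1.17 (adjusted p = 0.000132) and -1.58 (adjusted p = 2.83e-06). Cox8a fell in old vehicle, -0.98 (adjusted p = 0.000653), and old BI01 muscle, -1.35 (adjusted p = 1.54e-05), and Ndufa4l2 fell in old vehicle muscle, -0.99 (adjusted p = 0.0436), a call with an adjusted p of 0.573 without day 7 library 7. With library size alone 37 rose and 5 fell in young muscle and 29 rose and 5 fell in old BI01 muscle.

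At day 35, young muscle stood above its uninjured level: 19 of 92 genes rose and 0 fell, against 7.06% and 8.66% of all genes. The median log2 change was 0.65, against 0.13 for all genes, and 56 genes were higher without overlap between the groups (11.2% of all genes). The genes that rose were 10 of complex I, 1 of complex II, 1 of complex III, 4 of complex IV and 3 of complex V. By edgeR, the largest log2 rises by complex were Ndufa1, 1.39 (SE 0.44, adjusted p = 0.0296), Sdhd, the membrane anchor of complex II, 0.95 (SE 0.27, adjusted p = 0.0156), the hinge protein Uqcrh of complex III, 1.26 (SE 0.36, adjusted p = 0.0163), Ndufa4l2 in complex IV, 1.40 (SE 0.48, adjusted p = 0.0436), and Atp5k in complex V, 1.99 (SE 0.68, adjusted p = 0.0475). Ndufa1, an accessory subunit of complex I, had 17.9, 24.6, 8.55 and 31.5 CPM in young uninjured and 49.1, 32.8, 31.5 and 103 in day 35 libraries. The groups overlapped at a single uninjured library for Ndufa1. Uqcrh had 68.1, 119, 34.4 and 116 CPM in the uninjured and 216, 162, 165 and 264 in the day 35 libraries, without overlap. Of 17 alternatives, the call was lost in 10 for Ndufa4l2, 8 for Atp5k, 6 for Ndufa1, 4 for Uqcrh and 2 for Sdhd. Ndufa4l2 lay at 0.276 CPM, which is 3 counts, in young uninjured library 3. The count of genes called higher was 74 with library size alone, above 19 with a block for the library number (given below), and 3 without a filter on low counts. It rests on single libraries: it was 0 without young uninjured library 3, 1 without library 1, 30 without library 4 and 28 without library 2 of that group, and 8 without library 1 and 2 without library 4 of the day 35 group. Fibroblast and matrix genes were also higher in these day 35 libraries, with 7 of 10 called higher at a summed mean of 1037 CPM (675 to 1288) against 439.6 (309 to 585). In old vehicle muscle at day 35, where no subunit gene was called, 8 of 10 were called higher at a summed mean of 1354 CPM, and their part in the result was not tested.

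In old vehicle muscle at day 35, 0 of 92 genes passed the edgeR test in either direction, and 0 had an unadjusted p under 0.05, while DESeq2 and limma voom also called 0. Over all genes 3.17% were called higher and 2.47% lower. The median log2 change was 0.18, with 85 of 92 genes above 0 and 16 higher without overlap (9.39% of all genes). A fit with only the compared groups called 15 higher and 1 lower, and adding a block for the library number also gave calls (given below). The difference between the ages in the day 35 change gave 0 calls by edgeR, DESeq2 and limma voom, and 0% of all genes by edgeR, with a median of -0.46 and 3 unadjusted p-values under 0.05. Old and young vehicle muscle at day 35 differed in 0 genes by edgeR, with a median log2 difference of 0.05 and 1 unadjusted p under 0.05, where 1.72% of all genes were called higher and 1.79% lower. DESeq2 and limma voom also called 0.

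In uninjured muscle, most subunit genes had higher means in old than in young libraries, but 2 of 92 passed the test. The median log2 difference was 0.55, against 0.09 for all genes, 90 of 92 genes were above 0 and 35 were higher without overlap (10.5% of all genes). The calls were 2 higher and 0 lower, against 5.79% and 7.65% of all genes. Ndufv3, an accessory subunit of complex I, had 34.6, 44.6, 16.8 and 56.2 CPM in young and 85.6, 57.7, 68.6 and 66.6 in old libraries, a log2 difference of 0.87 (SE 0.29, adjusted p = 0.0432) by edgeR. Sdhd had 95.1, 161, 74.5 and 149 CPM in young and 235, 168, 203 and 235 in old libraries, a difference of 0.81 (SE 0.27, adjusted p = 0.042). Both genes were higher in every old than in every young library. Young uninjured library 3 was the lowest of its group for both genes, and the count was 0 without library 1 or 3 of that group, 7 without its library 2, 6 without its library 4, and 0 without old uninjured library 6, 8 or 9. Library size alone gave 36 higher genes, DESeq2 gave 6, and the fit without a filter on low counts gave 0. Slow fibre genes moved with this comparison: 7 of 11 were called higher in old muscle, with a summed mean of 68.4 CPM in young (54.9 to 79.8) and 228 in old libraries (78.4 to 492), and Myh7 and Myl2 had no counts in the young ones. Of 12 regenerating fibre genes, 10 were called higher in old muscle. The part of these fibre genes in the result was not tested.

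Shorter genes showed larger differences in several comparisons. Among the 92 genes, Spearman's rho between gene length and log2 difference was -0.40 for old against young uninjured muscle and -0.45 for day 35 against uninjured muscle in young mice, against -0.23 and -0.19 over 14201 other protein-coding genes. The 23 subunit genes under 1000 bases had a median log2 difference of 0.70 between old and young uninjured muscle, where 322 other protein-coding genes of that length had 0.48. These correlations are across genes, which are not independent replicates, and the part of gene length in the results was not tested.

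At day 7, most subunit genes had lower means in old vehicle than in young muscle. By edgeR, 7 of 92 genes were lower and 0 higher, where 2.18% of all genes were called lower and 0.251% higher. The median log2 difference was -0.61, against 0.04 for all genes, with 87 of 92 genes below 0 and 49 lower at an unadjusted p under 0.05. Among the genes that passed, the largest falls by class were Ndufb9 of complex I, -1.06 (SE 0.24, adjusted p = 0.019), Uqcrc1, a core protein of complex III, -0.92 (SE 0.25, adjusted p = 0.0407), Atp5h of the ATP synthase stalk, -0.82 (SE 0.22, adjusted p = 0.0397), and the assembly factor Ndufaf6, -0.94 (SE 0.26, adjusted p = 0.0433). Cycs also passed, at -1.03 (SE 0.28, adjusted p = 0.0436), with the library values given above: old day 7 library 9, at 153 CPM, was the only one inside the young range. Of the 16 fast fibre genes, 2 were called lower in old muscle at day 7, with a median log2 difference of -1.10, and their part in the result was not tested. The count was 53 without old day 7 library 9, 17 without young day 7 library 4, 1 without old day 7 library 8 or young day 7 library 6, and 0 without old day 7 library 7 or young day 7 library 7. It was 1 with library size alone, 2 with DESeq2 size factors, 4 without a filter on low counts, 0 with only the compared groups, 18 by DESeq2 and 25 by limma voom.

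The change from uninjured to day 7 was itself compared between the ages, as a difference of differences. By edgeR, 30 of 92 genes fell more in old muscle and 0 fell less, where 4.48% of all genes were called lower and 3.22% higher. The median was -1.13, against -0.07 for all genes, and with library size alone the distance between these medians was -1.04 in place of -1.06. The 30 genes were 12 of complex I, 3 of complex II, 1 of complex III, Cycs, 1 of complex IV, 9 of complex V and 3 assembly factors. By edgeR's test of this difference, Cycs differed by -1.55 (SE 0.40, adjusted p = 0.016), Atp5g1 by -1.48 (SE 0.42, adjusted p = 0.0274), Cox4i1 by -1.30 (SE 0.32, adjusted p = 0.0132), Sdhb by -1.25 (SE 0.36, adjusted p = 0.0309), Ndufs7 by -1.22 (SE 0.37, adjusted p = 0.0386) and Uqcrc1 by -1.09 (SE 0.34, adjusted p = 0.0467).

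Cox4i1, the main isoform of complex IV subunit 4, was the complex IV gene among the 30. It had 424, 497, 204 and 492 CPM in young uninjured and 308, 359, 432 and 534 in young day 7 libraries, and 708, 539, 552 and 603 in old uninjured and 168, 246, 356 and 215 in old day 7 libraries. The young groups overlapped and the old groups did not. Sdhb, the iron-sulfur subunit of complex II, had means of 223 ± 62.4 and 202 ± 55.6 CPM in young and 293 ± 48.8 and 111 ± 45.8 in old muscle (SD, n = 4). For the muscle isoforms the difference was -1.60 (adjusted p = 0.0828) for Cox6a2, -1.79 (adjusted p = 0.177) for Cox7a1 and -1.16 (adjusted p = 0.49) for Cox8b, none of which passed. The difference holds both the higher old uninjured values and the lower old day 7 values, and it rests on few libraries: the count was 75 without old day 7 library 9, 3 without young day 7 library 7, 4 without young uninjured library 1 or 3, and 8 without old uninjured library 6 or old day 7 library 7. It was 16 without old uninjured library 8, 13 without old uninjured library 9 or old day 7 library 8, 12 without old day 7 library 10 and 15 without young day 7 library 6. It was 41 without young uninjured library 2, 44 without its library 4 and 46 without young day 7 library 4, and 0 when each fit held only the 4 groups compared. Fibre genes moved with this difference: 6 of 12 regenerating fibre genes were called lower, with a median of -2.98, 4 of 11 slow fibre genes, with a median of -5.02, and 1 of 16 fast fibre genes, with a median of -1.22. Of the macrophage and the fibroblast and matrix genes 0 were called in either direction. The part of these genes in the result was not tested.

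BI01 was compared with vehicle in old muscle. At day 7, 0 of 92 genes passed the edgeR test, and 0% of all genes passed in either direction. The median log2 difference was 0.49, against 0.01 for all genes, with 88 of 92 genes above 0. At an unadjusted p under 0.05, 27 genes were higher, against 3.84% of all genes. The all-gene median is not matched for gene length, and shorter genes had higher differences here (Spearman's rho -0.37 over 14201 other protein-coding genes). Among genes under 1000 bases, the median was 0.78 for 23 subunit genes and 0.34 for 322 other protein-coding genes. Among the longest genes, it was 0.36 for 11 subunit genes and -0.08 for 7845 others. The part of gene length in this difference was not tested. No subunit gene was higher without overlap (0.964% of all genes). The muscle isoforms of complex IV differed by 1.25 (SE 0.67, adjusted p = 0.742) for Cox8b, 1.16 (SE 0.58, adjusted p = 0.741) for Cox7a1 and 0.91 (SE 0.41, adjusted p = 0.741) for Cox6a2 on the log2 scale, and Cox6a1 stood at 0.16 (adjusted p = 0.916). Cox6a2 had 121, 58.1, 184 and 276 CPM in the BI01 libraries at day 7 and Cox8b 18.2, 12.6, 64.4 and 100.1. For Cox8b, old vehicle library 9 (59.9 CPM) lay inside the BI01 range, and every other vehicle library lay below it. For Cox6a2, vehicle libraries 8 and 9 lay inside the BI01 range and libraries 7 and 10 below it. Leaving out old vehicle library 9 gave 6 genes higher, and DESeq2 and limma voom gave 0. Summed mature fast fibre genes at day 7 had means of 60380.5 CPM with vehicle and 61418 with BI01. Both groups spread widely around these means, with the ranges given above. The part of fibre genes in this difference was not tested. At day 35, BI01 and vehicle differed in 0 subunit genes and 0% of all genes by edgeR, with a median of -0.03 and 0 unadjusted p-values under 0.05. The change in the BI01 difference between the times gave 0 calls, also with 0% of all genes called, a median of -0.51 and 1 unadjusted p under 0.05. DESeq2 and limma voom gave 0 in both.

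Other genes of the pathway gave the following picture. The 13 chain subunits encoded by mitochondrial DNA all fell at day 7 in both ages by edgeR, with a median log2 change of -1.95 in young and -2.89 in old muscle. Their summed CPM per summed CPM of the nuclear genes was 10.3 ± 0.809 in young and 6.77 ± 0.104 in old uninjured muscle, and 3.96 ± 0.211 and 3.29 ± 0.646 at day 7 (SD, n = 4). At day 35 it was 5.12 ± 1.07 in young, 5.35 ± 1.14 in old vehicle and 4.95 ± 0.907 in old BI01 muscle. The ratio was lower in all 8 vehicle libraries at day 7 than in every uninjured library of their age.

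The subunit genes were also set against the genes of mature fast fibres, as a ratio with no test. The ratio of summed subunit CPM to summed fast fibre CPM was 0.0528 in young and 0.0872 in old uninjured muscle, 0.104 in young day 7 muscle and 0.190 ± 0.140 in old vehicle day 7 muscle, with a range of 0.0799 to 0.390 in the last group, which overlapped that of old uninjured muscle (0.0762 to 0.0991). At day 35 it was 0.0976 in young and 0.108 in old vehicle and 0.108 in old BI01 muscle. Of the 16 fast fibre genes, 9 fell and 1 rose at day 7 in young muscle (median -1.58), and 13 fell in old muscle (median -2.45).

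**Figure D5:**
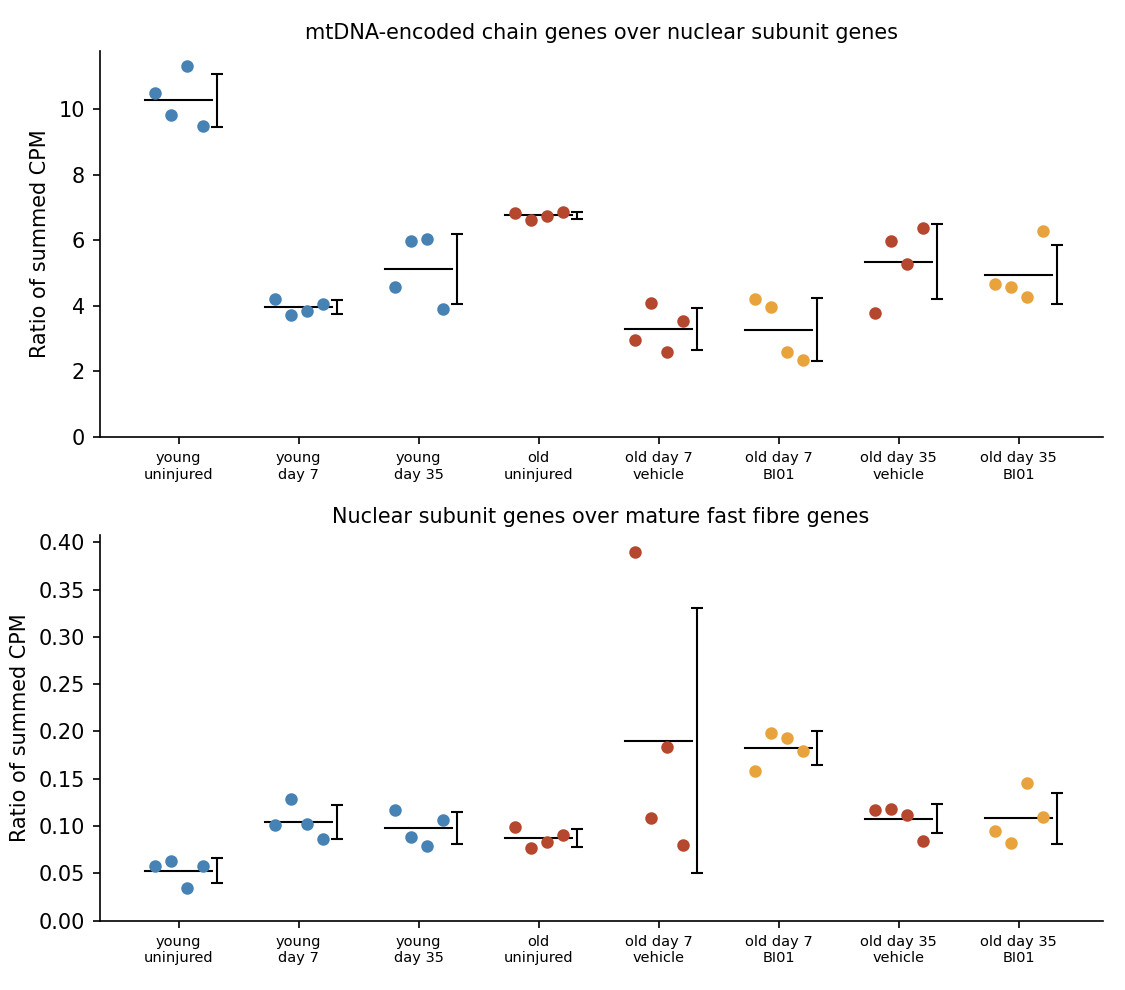
Ratio of the summed CPM of the 13 mitochondrially encoded chain genes to that of the 96 nuclear subunit genes, and of the nuclear subunit genes to the mature fast fibre list, by group. Points are libraries, lines are means and bars are the SD (n = 4). The first ratio is 10.3 in young and 6.77 in old uninjured muscle and 3.96 and 3.29 at day 7. The second is 0.0528 and 0.0872 uninjured and 0.104 and 0.190 at day 7.

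Of 28 tested regulators of respiratory genes, 17 fell and 5 rose at day 7 in young muscle, and 11 fell and 6 rose in old muscle. Tfb2m, a mitochondrial transcription factor, went from 60.0 ± 5.18 to 20.5 ± 2.73 CPM in young muscle, -1.55 (SE 0.14, adjusted p = 6.28e-11), and from 56.7 ± 2.53 to 17.0 ± 3.48 CPM in old muscle, -1.74 (SE 0.14, adjusted p = 6.71e-12) (log2 change, edgeR). Esrra, the nuclear receptor ERR alpha, went from 120.0 ± 19.5 to 27.7 ± 10.9 CPM in old muscle, -2.12 (SE 0.24, adjusted p = 4.97e-09). Tfam, which packages and transcribes mitochondrial DNA, fell in old muscle, -1.21 (SE 0.14, adjusted p = 5.42e-09), a call that was lost with library size alone at -0.21 (adjusted p = 0.179). Hif1a, the oxygen-regulated subunit of HIF1, rose, 2.00 (SE 0.20, adjusted p = 5.35e-10). In young muscle the coactivator Ppargc1b rose, 2.50 (SE 0.35, adjusted p = 3.35e-07), and Yy1, -0.77 (adjusted p = 8.19e-07), and Polrmt, -0.86 (adjusted p = 3.6e-06), were lower, with values of 0.11 and 0.03 under library size alone. Genes named for 1 age had means that moved the same way in the other. In young muscle Esrra went from 75.4 to 38.0, Tfam from 51.4 to 32.6 and Hif1a from 30.3 to 66.6 CPM. In old muscle Ppargc1b went from 11.7 to 22.0, Yy1 from 64.7 to 55.6 and Polrmt from 38.7 to 27.3 CPM.

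Between the ages, 5 of the 28 regulators were higher and 6 lower in old uninjured muscle. The coactivator Pprc1 was lower, -1.43 (SE 0.26, adjusted p = 0.000467), as were Myc, -2.70 (SE 0.49, adjusted p = 0.000514), and the mitochondrial RNA polymerase Polrmt, -0.60 (SE 0.14, adjusted p = 0.00392), and Ppargc1b was higher, 1.44 (SE 0.34, adjusted p = 0.00529), lost with only the compared groups (adjusted p = 0.0624). At day 7, Tfam, -0.59 (adjusted p = 0.0209), the mitochondrial RNA-binding protein Lrpprc, -0.68 (adjusted p = 0.0241), and the muscle regulator Perm1, -2.36 (adjusted p = 0.0313), were lower in old than in young muscle (log2 differences, edgeR). These 3 calls rest on single libraries. Without young day 7 library 7 the adjusted p was 0.182 for Tfam, 0.199 for Lrpprc and 0.207 for Perm1, without old day 7 library 7 it was 0.0943, 0.115 and 0.152, and without old day 7 library 8 it was 0.0589, 0.0501 and 0.0756. With only the compared groups it was 0.372, 0.383 and 0.293. Library size alone also ended the calls of Tfam (0.22) and Lrpprc (0.0759), and the fit without a filter those of Tfam (0.0733) and Perm1 (0.0732).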

How the data were processed

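RNA was taken from tibialis anterior muscle, and reads were aligned with HISAT2 to mm10, per the submitters' processing notes. The counting tool, annotation version and strand setting were not given in the sources used here, so reads of a gene and an overlapping gene cannot be told apart. The deposited table holds raw counts per gene made by the authors, 54532 rows in 32 columns. Column names gave each library's group but not which sample of the group, so each library carries its group and the number in its column name. Depth was 14129350 to 30439358 counts, at which 3 counts correspond to 0.0835 to 0.289 CPM. Intervals and floors cover counting error only.

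Counts were scaled with TMM and tested with edgeR 4.0.16 in R 4.3.3 (filterByExpr, quasi-likelihood, 1 mean per group over all 32 libraries, two-sided), with Benjamini-Hochberg adjustment over 17121 genes and a threshold of 0.05. The fits gave 12 pairwise contrasts and 3 contrasts of such differences. DESeq2 1.42.0, limma voom 3.58.1, other scalings and filters, fits on the compared groups alone, and leaving out each library were the alternatives. On simulated counts for old against young uninjured muscle (16189 genes), the same code recovered 66 of 100 genes changed by 1 on the log2 scale and 97 of 100 changed by 2, with 5 false calls among 168. Each gene was drawn independently there, so no shift shared by many genes of a library was simulated. These rates do not carry over to libraries with such shifts.

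The subunit genes and the 16 gene lists read beside them were chosen with earlier results of these data known. Named genes were the isoform pairs, core subunits, the largest called rise and fall per complex and comparison, genes called against the main direction, genes that failed the filter, the 3 least like the common profile, and up to 4 called regulators per comparison. Sums, shares and ratios are descriptions without a test.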

Additional observations from a re-analysis of the deposited data

Results flagged for a closer look

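Among 168 groups of 4 libraries checked for a single extreme value by Dixon's ratio, 4 had one, where chance gives about 1 in 20. Cox7a1 had 47.1 CPM in old vehicle day 7 library 9, above the 3 other libraries, and 190.2 CPM in old vehicle day 35 library 9, below the 3 others. Cox8b had 59.9 CPM in the same old vehicle day 7 library 9. Ndufa4l2 had 33.5 CPM in old vehicle day 7 library 7, above the 3 others. The libraries numbered 9 at day 7 and day 35 are different libraries that share a table number.

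The day 7 change differed between the ages by the test of that difference in 30 of 92 genes, all with a larger fall in old muscle. Among the named genes the log2 differences were -1.55 for Cycs, -1.48 for Atp5g1, -1.30 for Cox4i1, -1.25 for Sdhb, -1.22 for Ndufs7 and -1.09 for Uqcrc1. Every one of these counts and values shares the same 4 groups, and the count ranged from 3 to 75 when single libraries were left out.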

How the results depend on the processing

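Library size alone gave 36 subunit genes higher in old uninjured muscle. It gave 34 higher and 1 lower at day 7 in young muscle, 5 higher and 48 lower in old muscle, 74 higher at day 35 in young muscle, 37 higher and 5 lower from day 7 to day 35 in young and 29 and 5 in BI01 muscle, and 1 lower for old against young at day 7. In young muscle at day 7 it turned Sdha to 0.029, Uqcrb to 0.028, Cycs to 0.68, Cox7a2 to 0.54, Yy1 to 0.11 and Polrmt to 0.030, and in old muscle Cox7a2l, chosen after its values were seen, to 0.65. The share of higher genes among all called genes went from 54.7% to 87.3% (young, day 7), 53.5% to 86.0% (old, day 7) and 43.1% to 78.0% (age, uninjured). The summed level became 1.25%, 1.63% and 2.17% in young uninjured, day 7 and day 35 muscle, 1.91%, 1.30% and 2.33% in old vehicle, and 1.70% and 2.34% in BI01 muscle at day 7 and 35. Without mitochondrially encoded genes it was 2.97%, 3.11% and 3.07% in young, old vehicle and BI01 muscle at day 35.

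DESeq2 size factors in edgeR gave 2 lower from day 7 to day 35 in young muscle and 2 lower for age at day 7. Without a filter, the counts were 0 for age in uninjured muscle, 3 higher at day 35 in young muscle, 4 lower for age at day 7 and 13 for the age difference at day 7. A filter of 1 CPM in 4 libraries gave 2 lower from day 7 to day 35 in young muscle. DESeq2 gave 6 higher for age in uninjured muscle, 1 lower at day 35 and 2 lower from day 7 to day 35 in young muscle, 18 lower for age at day 7 and 46 for the age difference. limma voom gave 25 and 47 for the last 2. With only the compared groups, none was called for age in uninjured muscle (0), 15 were higher and 1 lower at day 35 in old muscle, 2 lower from day 7 to day 35 in young muscle, 0 lower for age at day 7, 1 higher for age at day 35 and 0 for the age difference. CPM not divided by gene length put the Cox7a1 share at 56.0%, 35.0% and 65.4% in young uninjured, day 7 and day 35, 62.9% and 63.9% in old uninjured and day 35, and 64.1% in BI01 day 35 muscle, and that of Cox8b at 33.2% in young day 7, 87.1% in young day 35, 89.3% in old uninjured, 89.3% in old day 35 and 89.9% in BI01 day 35 muscle. The cause of these changes was not tested.

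Leaving out single libraries gave 0 to 7 higher for age in uninjured muscle, 16 to 47 lower at day 7 in young and 84 to 88 in old muscle, 0 to 30 higher at day 35 in young muscle, 0 to 53 lower for age at day 7, 3 to 75 lower for the age difference at day 7 and 0 to 6 higher for BI01 at day 7. From day 7 to day 35 it gave 68 to 85 higher and 1 to 2 lower in young, 87 to 88 and 2 to 3 in old vehicle, and 75 to 82 and 2 to 3 in BI01 muscle. Cycs in young muscle at day 7 ranged from -0.50 to 0.025, above 0 without young uninjured library 2 and, at 0.0015, without young day 7 library 4. Cox6a1 for BI01 at day 7 ranged from -0.077, without old vehicle library 10, to 0.47. Of the values for single named genes under an alternative, 1416 kept their direction and side of the threshold, 235 lost and 13 gained the call, and 10 changed sign.

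Same-numbered young uninjured and day 35 libraries had deviations correlated at 0.16, -0.03, 0.15 and 0.16. Libraries 1, 3 and 4 correlated best with their own number and library 2 did not. In old vehicle muscle the values were 0.01, 0.03, 0.07 and 0.11, and libraries 8 and 9 correlated best with their own number. The labels do not say whether these groups shared animals, and these values cannot settle it. The main fits took the samples as unpaired. With a replicate block, 48 genes were higher and 1 lower at day 35 in young muscle, and 13 and 1 in old muscle, and the other counts moved by less than 1.5 times. Depth limits Cox6b2 and Cox7b2, whose 131 and 8 counts over 32 libraries allowed no test.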

Other observations

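Genes that work beside the respiratory chain were lower at day 7 in old muscle in larger numbers than in young muscle, though the counts were not compared by a test. Of 18 genes of the TCA cycle and pyruvate dehydrogenase, which supply the chain with NADH and succinate, 10 fell and 1 rose at day 7 in young muscle (median log2 change -0.59) and 17 fell in old muscle (median -1.53). Of 8 tested cristae and MICOS genes, which shape the inner membrane, 4 fell and 1 rose in young muscle and 7 fell in old muscle (medians -0.49 and -1.08). Of 13 coenzyme Q synthesis genes, 4 fell and 2 rose in young and 9 fell and 1 rose in old muscle (medians -0.31 and -1.28). Of 43 tested assembly factors outside the naming rule, 19 fell and 3 rose in young and 35 fell and 1 rose in old muscle (medians -0.48 and -1.18). In old against young muscle at day 7, 7 of the 18 TCA genes and 3 of the 43 assembly factors were lower and none of either list was higher.

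For BI01 against vehicle at day 7, Spearman's rho between gene length and log2 difference was -0.44 over the 92 subunit genes and -0.37 over 14201 other protein-coding genes. These values are across genes, which are not independent replicates.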
